A study of Danio rerio with 6 samples.

Results

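The 8 genes described here encode transcriptional regulators of mitochondrial and fatty acid metabolism: ppargc1a, ppargc1b, esrra, esrrga, pparaa, pparab, nrf1 and tfam. They were taken by exact gene name from deposited count tables of 25281 genes, and all 8 names were found. They were measured by RNA-seq in 6 libraries of sorted adult zebrafish heart cells, 3 called GFP+ and 3 called GFP-. The study compared cardiomyocytes of the atrioventricular canal (the tissue between atrium and ventricle) with active Wnt/β-catenin signalling, which it called β-cat ON, with the remaining cardiomyocytes of the same tissue, called β-cat OFF. Every fish carried 3 transgenes, the reporter Tg(myl7:GAL4db-TCFΔC-2A-mCherry), its responder Tg(UAS:EGFP) and the nuclear label Tg(myl7:NLS-mCherry), and was 4 to 8 months old. Digestion was with collagenase at 3 mg per ml for 30 min for all 6 libraries. Both groups thus share 1 genotype and differ by the sort. The myl7 promoter drives the reporter and the nuclear mCherry in cardiomyocytes, and EGFP marks cells in which the GAL4-TCF fusion is active. The sorted-fraction label of the GFP- libraries names EGFP+ cells without mCherry, which conflicts with their titles, and the groups below follow the titles. The labels do not say how many fish entered a library or whether the libraries came from separate fish, and the p-values therefore reflect no more than how these samples vary, part of which may be technical.

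PGC-1 proteins, encoded by ppargc1a and ppargc1b, are coactivators: they bind no DNA themselves and are brought to genes by partner transcription factors. In mammals these partners include the oestrogen-related receptors (ERR, here esrra and esrrga), which act on genes of the citric acid cycle and oxidative phosphorylation, the fatty acid-sensing receptors PPARα (pparaa and pparab), which act on genes of fatty acid use together with RXR, and NRF1, which acts on nuclear genes of the respiratory chain and on tfam. Tfam enters mitochondria, where it packages mitochondrial DNA and helps to start its transcription. In the mammalian heart this group of genes supports the high oxidative capacity of working muscle.

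Of the 8 regulators, ppargc1a alone passed the test across all genes, and it was 4.05-fold lower in GFP+ libraries. ppargc1b, esrra and tfam were also lower in every GFP+ library than in any GFP- library, by 2.74-fold, 1.92-fold and 1.42-fold, without passing the test. nrf1 and esrrga overlapped between the groups, and the PPARα genes had few counts. Differences were tested with edgeR on 13490 genes with enough counts, with p-values adjusted by Benjamini-Hochberg over all of them, and a gene was called at an adjusted p below 0.05. All but pparab entered the test, 7 regulators. Of all genes tested, 4.21% were called, 2.13% lower and 2.08% higher in GFP+ libraries. Of all genes tested, 17.6% were lower in every GFP+ library than in any GFP- library, beside 4 of the 7 regulators tested. The regulators' median log2 fold change was -0.85, and that of all genes tested was 0.01. These counts describe genes chosen for their function and are no test of the group.

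The libraries differed in more than these genes. Counts summed to 16275969 to 19750914 in GFP- libraries and to 14783352 to 15934231 in GFP+ libraries. Mitochondrially encoded genes took 11.9% to 15.7% of the counts in GFP- and 35.6% to 44.9% in GFP+ libraries. Of the genes tested, 4 to 66 had no count in a GFP- library and 725 to 1270 had none in a GFP+ library, and the biological coefficient of variation was 0.266 within GFP- and 1.04 within GFP+. Cardiomyocyte markers were lower: 7 of 12 tested fell (2 to 4 with any 1 library left out) and 1, myh6, rose (a call lost without any GFP- replicate or GFP+ replicate 1), and their summed level was 85912 to 106414 CPM in GFP- and 40202 to 50220 CPM in GFP+ libraries. CPM here is counts per 1e6 counts of a library after TMM scaling. Of all 13490 genes tested, edgeR called 280 higher and 288 lower, DESeq2 938 and 729, and limma-voom 311 and 549. With 1 library left out, edgeR called 30 to 443 of all genes higher and 14 to 575 lower. Marker lists of endocardium, fibroblasts, epicardium, erythrocytes and neurons had higher sums in every GFP+ library than in any GFP- library. Summed endocardium markers were 95.7 to 175 CPM in GFP- and 348 to 597 CPM in GFP+ libraries, with 2 of 10 called higher by edgeR, 7 by DESeq2 and 3 by limma-voom. Summed fibroblast markers were 154 to 364 and 791 to 1168 CPM, with 5 of 9 called by edgeR and 7 by DESeq2. Summed epicardium markers were 76.9 to 85.1 and 204 to 511 CPM, with 3 of 6 called by edgeR and by DESeq2, and summed erythrocyte markers 509 to 612.2 and 1589 to 2443 CPM, with 3 of 5 called by both. Summed macrophage markers were 80.6 to 259 and 69.0 to 278 CPM, with 0 of 6 called and 0 at an unadjusted p below 0.05 by edgeR, and 0 called by DESeq2 or limma-voom. Summed neuron markers were 0.276 to 1.80 and 3.92 to 11.6 CPM, and the 1 neuron marker tested was called by DESeq2 but not by edgeR or limma-voom. No marker of these lists was at 0 in all GFP+ libraries. In such bulk samples, fewer cells of a type and less RNA per cell cannot be told apart. The part of these differences in the results below was not tested.

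The coactivator ppargc1a (ENSDARG00000067829) encodes PGC-1α, the best known of the PGC-1 proteins. Its counts were 523, 820 and 1163 in GFP- replicates 1, 2 and 3, and 126, 189 and 154 in GFP+ replicates 1, 2 and 3. Scaled, its level was 34.6, 41.0 and 53.5 CPM in the GFP- libraries and 9.75, 12.2 and 10.002 CPM in the GFP+ libraries. The lowest GFP- library lay well above the highest GFP+ library, and the GFP+ libraries differed among themselves by no more than 1.25-fold. The mean was 43.1 ± 9.64 CPM (SD, n = 3) in GFP- and 10.6 ± 1.32 CPM (SD, n = 3) in GFP+ libraries. This was a log2 fold change of -2.02 ± 0.28 (SE), with an adjusted p of 0.0158 by edgeR's quasi-likelihood test. The direction held when each library was left out in turn, with log2 fold changes of -2.12 to -1.85. The edgeR call was lost in 4 of these 6 fits: the adjusted p was 0.0767, 0.0583 and 0.109 without GFP- replicate 1, 2 or 3, and 0.0519 without GFP+ replicate 2. It was 0.0482 without GFP+ replicate 1 and 0.0253 without GFP+ replicate 3.

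**Figure D1:**
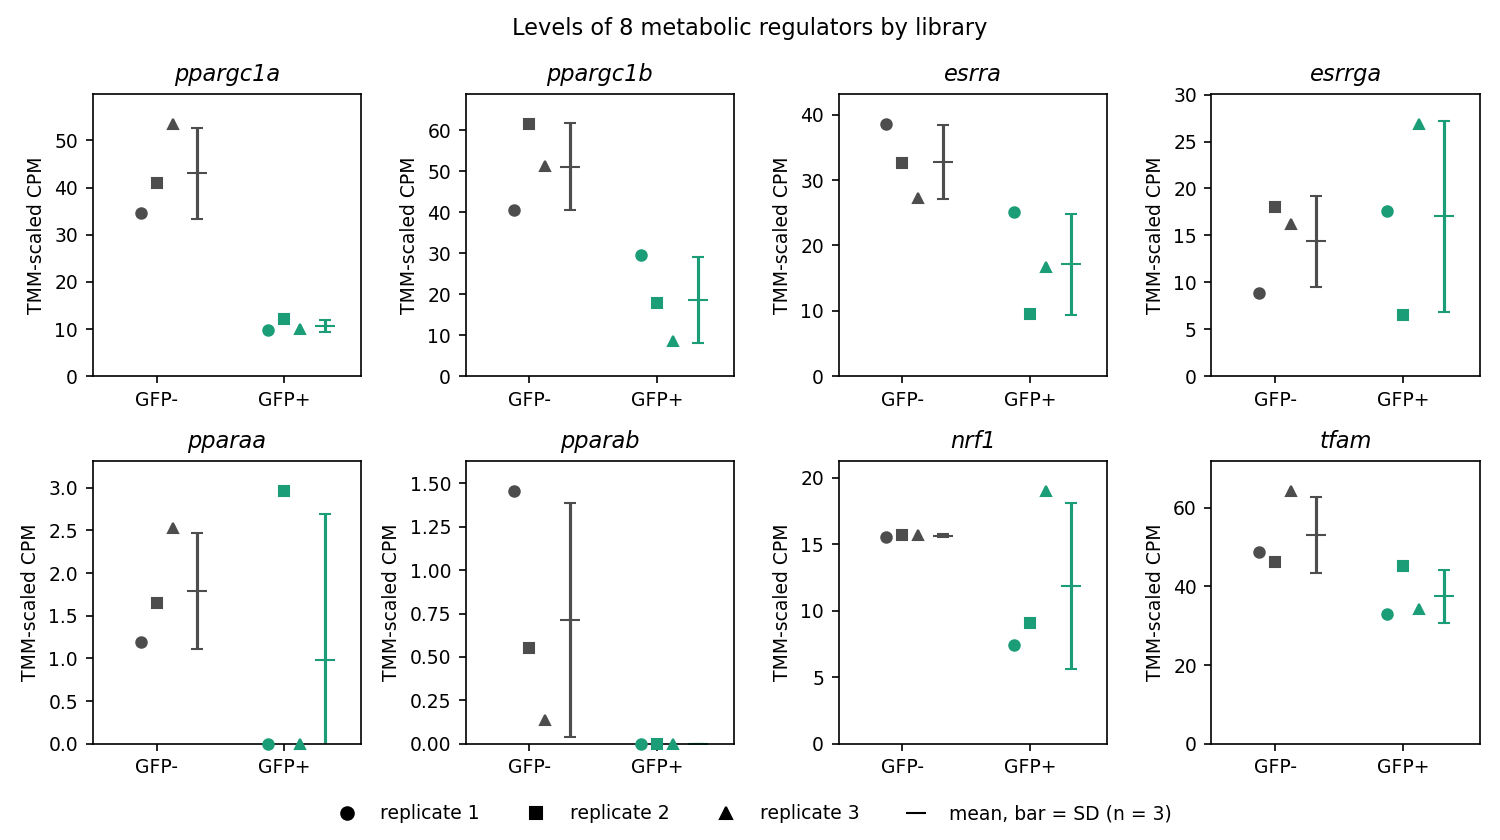
Levels of the 8 regulators as TMM-scaled CPM on the y axis, 1 panel per gene and 1 point per library, with the mean and SD of 3 libraries beside the points and the SD bar of pparaa ending at the axis. ppargc1a lies at 34.6 to 53.5 CPM in GFP- and 9.75 to 12.2 CPM in GFP+ libraries, while esrrga and nrf1 overlap between the groups.

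The second PGC-1 coactivator gene, ppargc1b (ENSDARG00000101569), which encodes PGC-1β, had up to 1231 counts in a GFP- library and 382, 277 and 133 counts in the GFP+ libraries. Its level was 40.5, 61.6 and 51.3 CPM in GFP- replicates 1, 2 and 3 and 29.6, 17.8 and 8.64 CPM in GFP+ replicates 1, 2 and 3. The groups did not overlap, but the GFP+ libraries spread over 3.42-fold, with replicate 1 near the lowest GFP- library. The means were 51.1 ± 10.6 and 18.7 ± 10.5 CPM (SD, n = 3 each). Its log2 fold change of -1.45 ± 0.44 (SE) had an adjusted p of 0.121 in edgeR and so was not called. DESeq2 called it, with a log2 fold change of -1.40 and an adjusted p of 0.0274. Over all alternatives run, its adjusted p ranged from 0.0274 to 0.337.

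The balance between the 2 coactivator genes did not separate the groups. ppargc1a made up 46.1%, 40.0% and 51.1% of the counts of both genes in the GFP- libraries and 24.8%, 40.6% and 53.7% in the GFP+ libraries (two-sided exact permutation p = 0.7). GFP+ replicate 1 lay below and GFP+ replicate 3 above every GFP- library.

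The related genes of the PGC-1 family were looked at from a list of paralogs that also holds the other ERR and PPAR genes. The list has 9 entries, of which 8 matched a row and 4 had enough counts to be tested. None of the 4 was called or had an unadjusted p below 0.05 by edgeR, and DESeq2 and limma-voom called none. pprc1, which encodes a further PGC-1-related coactivator, was at 1.98, 5.35 and 7.00 CPM in GFP- and 9.67, 4.05 and 19.2 CPM in GFP+ libraries. GFP+ replicate 3 was the highest and the groups overlapped, with a log2 fold change of 1.20 ± 0.75 (SE) and an edgeR adjusted p of 0.507. Without GFP+ replicate 3 the log2 fold change was 0.51, within a range of 0.51 to 1.68 as each library was left out.

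perm1b (ENSDARG00000076850, matched by its identifier) is a zebrafish relative of PERM1, a muscle protein that acts with PGC-1 and ERR in mammals. It was at 179, 165 and 212 CPM in GFP- and 126, 95.3 and 173 CPM in GFP+ libraries. Only GFP+ replicate 3 reached the GFP- range. The log2 fold change was -0.50 ± 0.24 (SE), with an edgeR adjusted p of 0.348. Its copy perm1a (ENSDARG00000094005) was at 1.98, 0.751 and 1.89 CPM in GFP- and 0, 0 and 3.83 CPM in GFP+ libraries. The groups overlapped through GFP+ replicate 3, and the edgeR adjusted p was 0.977.

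Of the receptor partners, esrra (ENSDARG00000069266) encodes ERRα, the ERR form most closely tied to PGC-1 in mammalian muscle. It had 584, 651 and 592 counts in the GFP- and 324, 149 and 257 counts in the GFP+ libraries. Its level was 38.6, 32.6 and 27.3 CPM in GFP- replicates 1, 2 and 3 and 25.1, 9.58 and 16.7 CPM in GFP+ replicates 1, 2 and 3. The groups did not overlap, and GFP+ replicate 1 lay just under GFP- replicate 3. The means were 32.8 ± 5.68 and 17.1 ± 7.76 CPM (SD, n = 3 each). The log2 fold change was -0.94 ± 0.39 (SE), with an edgeR adjusted p of 0.247, and the adjusted p ranged from 0.120 to 0.671 over the alternatives.

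esrrga (ENSDARG00000004861) encodes an ERRγ, a receptor of oxidative tissues in mammals. It had 134, 360 and 353 counts in GFP- and 228, 102 and 414 counts in GFP+ libraries, or 8.86, 18.0 and 16.3 CPM and 17.6, 6.56 and 26.9 CPM. GFP+ libraries held both the lowest and the highest value, 4.10-fold apart. The means were 14.4 ± 4.86 and 17.0 ± 10.2 CPM (SD, n = 3 each). The log2 fold change was 0.24 ± 0.56 (SE), with an edgeR adjusted p of 0.913, and it was -0.26 without GFP+ replicate 3. The other ERR genes had too few counts for the test. esrrb had 0, 2 and 0 counts in GFP- and 8, 0 and 1 in GFP+ libraries, and esrrgb had 1 count in all, in GFP+ replicate 1.

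The PPARα gene pparaa (ENSDARG00000031777) had 18, 33 and 55 counts in the GFP- libraries and 0, 46 and 0 counts in the GFP+ libraries. Its level was 1.19, 1.65 and 2.53 CPM in GFP- and 0, 2.96 and 0 CPM in GFP+ libraries. GFP+ replicate 2 alone carried the transcript in that group and was higher than every GFP- library. The log2 fold change was -0.85 ± 1.82 (SE), with an edgeR adjusted p of 0.905, and it moved from -7.92 to -0.28 as single libraries were left out, with -7.92 without GFP+ replicate 2. The other PPARα gene, pparab (ENSDARG00000054323), had 22, 11 and 3 counts in the GFP- libraries and 0 in each GFP+ library, and did not pass the filter on low counts. Set against a floor of 3 counts over the GFP+ group, it was at least 9.26-fold lower there, and with the counting error of the GFP- counts included, the exact 95% interval of the ratio had a lower limit of 7.15. Both values cover counting error only, and the GFP- libraries themselves ranged from 3 to 22 counts.

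The PPARδ gene ppardb, whose mammalian counterpart acts on fatty acid use in muscle, was at 9.92, 7.61 and 7.50 CPM in GFP- and 8.36, 21.7 and 0.0650 CPM in GFP+ libraries. The GFP- libraries were alike and the GFP+ libraries held both extremes, with a log2 fold change of 0.27 ± 1.27 (SE) and an edgeR adjusted p of 0.964. Its copy pparda had 4, 2 and 17 counts in GFP- and 22, 0 and 3 in GFP+ libraries. pparg, which encodes the PPAR known for fat cell formation in mammals, had 0, 18 and 4 counts in GFP- and 0, 7 and 2 in GFP+ libraries. Neither was tested.

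PPAR proteins bind DNA as pairs with RXR proteins, so RXR genes were listed too: 5 of 6 entries matched a row, 3 were tested and none was called by edgeR, DESeq2 or limma-voom, with 0 at an unadjusted p below 0.05 by edgeR. rxrbb was at 17.5, 18.8 and 16.2 CPM in GFP- and 17.8, 33.7 and 38.6 CPM in GFP+ libraries, with a log2 fold change of 0.78 ± 0.34 (SE) and an edgeR adjusted p of 0.283. GFP+ replicates 2 and 3 lay above the GFP- range and replicate 1 within it. rxrba was at 3.24, 3.40 and 2.90 CPM and at 6.04, 0.321 and 10.7 CPM (log2 fold change 0.84 ± 1.101, SE, edgeR adjusted p = 0.822). rxrgb was at 4.30, 8.66 and 9.81 CPM and at 0.0774, 7.20 and 6.43 CPM (log2 fold change -0.73 ± 1.19, SE, edgeR adjusted p = 0.867). In both genes 1 GFP+ library was near 0 while the other two lay within or above the GFP- range. rxraa had 24 counts over the GFP- and 1 count over the GFP+ libraries, a ratio of 18.5 with a 95% exact counting interval of 3.02 to 762. This interval pools the libraries of each group and leaves out the spread between them. rxrab had 0, 1 and 11 counts in GFP- and 0, 33 and 1 in GFP+ libraries.

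**Figure D2:**
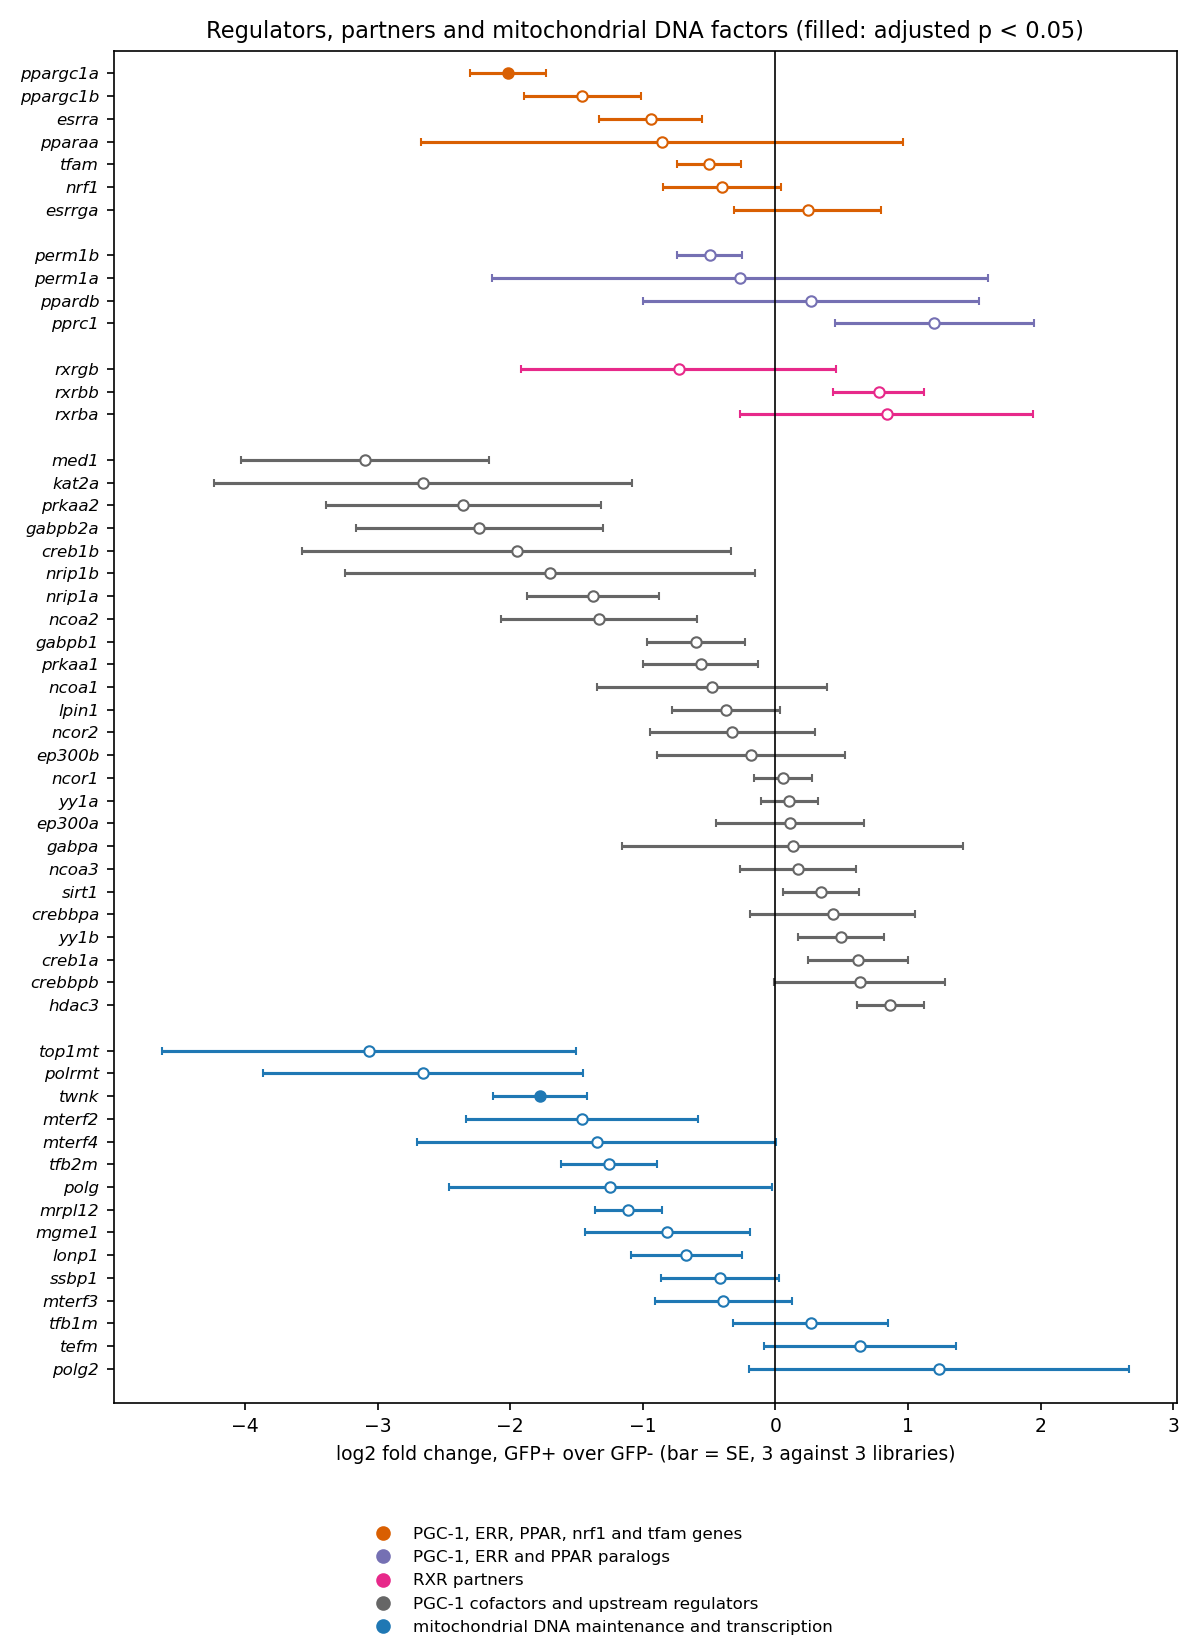
Log2 fold change of GFP+ over GFP- libraries on the x axis for each tested regulator, paralog, RXR partner, cofactor and mitochondrial DNA factor on the y axis, with bars of 1 SE and filled points for an adjusted p below 0.05. Filled points mark ppargc1a at -2.02 and twnk at -1.77. The longest bars belong to perm1a at ± 1.87 and pparaa at ± 1.82, both with GFP+ libraries at 0 counts.

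nrf1 (ENSDARG00000000018) had 235, 313 and 341 counts in the GFP- and 96, 141 and 292 counts in the GFP+ libraries. Its level was 15.5, 15.7 and 15.7 CPM in GFP- replicates 1, 2 and 3, the least variable of the 8 regulators in that group, and 7.43, 9.07 and 19.0 CPM in GFP+ replicates 1, 2 and 3. GFP+ replicates 1 and 2 lay below and GFP+ replicate 3 above every GFP- library. Its log2 fold change was -0.40 ± 0.44 (SE), with an edgeR adjusted p of 0.769.

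tfam (ENSDARG00000063145) had 739, 921 and 1394 counts in the GFP- and 425, 702 and 528 counts in the GFP+ libraries. Its level was 48.9, 46.1 and 64.2 CPM in GFP- and 32.9, 45.1 and 34.3 CPM in GFP+ libraries, so the groups were separated by a narrow gap between GFP- replicate 2 and GFP+ replicate 2. The means were 53.0 ± 9.74 and 37.4 ± 6.70 CPM (SD, n = 3 each). tfam had a log2 fold change of -0.50 ± 0.24 (SE) and an edgeR adjusted p of 0.328.

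In contrast to tfam, transcripts of the mitochondrial genome were higher in GFP+ libraries. Of 13 mitochondrially encoded genes tested, 12 rose, beside 2.08% of all genes tested, and their median log2 fold change was 1.57. The median stayed between 1.40 and 1.71 over all alternatives, while the number called was 8, 8 and 4 without GFP- replicate 1, 2 or 3 and 8, 7 and 13 without GFP+ replicate 1, 2 or 3. All genes that rose were 37, 75 and 30, and 157, 91 and 443 in the same fits. The mitochondrially encoded genes were separated in level as well. Their summed level was 158856, 135367 and 107893 CPM in GFP- and 513531, 413397 and 360233 CPM in GFP+ libraries. Per 1e5 mitochondrially encoded counts, tfam had 30.8, 34.0 and 59.5 counts in GFP- and 6.41, 10.9 and 9.52 counts in GFP+ libraries, 4.63-fold lower. The GFP+ values all lay below the GFP- values, and the two-sided exact permutation p was 0.1, the smallest that 3 against 3 can give (0.15 adjusted over 3 such ratios). The ratio of mitochondrially encoded counts to counts of nuclear genes of oxidative phosphorylation (OXPHOS) was 1.79, 2.12 and 1.49 in GFP- and 12.7, 10.7 and 8.57 in GFP+ libraries.

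Among nuclear genes that copy, maintain and transcribe mitochondrial DNA, 15 of 16 listed were tested. Of these, 1 fell by edgeR, beside 2.13% of all genes tested. By limma-voom 1 fell, beside 549 of all 13490 genes tested, and by DESeq2 3 fell, beside 729. None of the 15 rose by edgeR, DESeq2 or limma-voom. By edgeR, 3 had an unadjusted p below 0.05, beside 18.9% of all genes tested. The gene that fell by edgeR was twnk (ENSDARG00000099900), which encodes the helicase of mitochondrial DNA replication. It was at 36.3, 24.0 and 25.2 CPM in GFP- and 10.4, 6.04 and 8.57 CPM in GFP+ libraries. Every GFP+ library was below every GFP- library, and the means of 28.5 ± 6.79 and 8.33 ± 2.17 CPM (SD, n = 3 each) were 3.42-fold apart (log2 fold change -1.77 ± 0.36, SE, edgeR adjusted p = 0.0401). The edgeR call was kept without GFP+ replicate 3, with an adjusted p of 0.0463. It was lost without any other library, with adjusted p of 0.241, 0.117 and 0.169 without GFP- replicate 1, 2 or 3, and 0.0663 and 0.0705 without GFP+ replicate 1 or 2. The median log2 fold change of the 15 genes was -1.11. Of them, 8 did not overlap between the groups, all lower in GFP+, beside 17.6% of all genes tested. Among these 8, top1mt passed the filter on low counts through its GFP- libraries alone, with 96 counts there and 9 over the GFP+ libraries.

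The list of PGC-1 cofactors and upstream regulators holds the acetyltransferases, corepressors, kinases and factors that act with or on PGC-1 in mammals. All 25 were tested and none was called by edgeR, while 4 had an unadjusted edgeR p below 0.05, beside 18.9% of all genes tested. DESeq2 called 1 of them, higher, beside 938 of all 13490 genes tested that it called higher. By limma-voom none of them was called. Their summed level was 326, 342 and 329 CPM in GFP- and 336, 304 and 332 CPM in GFP+ libraries, so the sums overlapped. The median log2 fold change was -0.32, and -0.050 with a stricter filter on low counts. Of the 25, 8 were lower and 2 higher in GFP+ libraries without overlap, beside 17.6% and 12.1% of all genes tested. hdac3, which encodes the histone deacetylase of the NCoR corepressor complex, was at 15.3, 15.7 and 15.4 CPM in GFP- and 28.8, 26.9 and 29.0 CPM in GFP+ libraries. All GFP+ libraries were higher by a similar amount, with a log2 fold change of 0.87 ± 0.25 (SE) and an edgeR adjusted p of 0.105. It was the gene that DESeq2 called, with an adjusted p of 0.00839. med1, which encodes the Mediator subunit that contacts nuclear receptors, was at 1.06, 2.10 and 1.66 CPM in GFP- and 0.155, 0.129 and 0.260 CPM in GFP+ libraries (log2 fold change -3.10 ± 0.94, SE, edgeR adjusted p = 0.116). The groups did not overlap, but med1 rests on few counts, 94 over the GFP- and 8 over the GFP+ libraries. It passed the filter on low counts through its GFP- libraries alone, so the lack of overlap is no support for a difference. With a stricter filter it was not tested.

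Genes known in mammals as targets of these regulators were taken from lists. Of 32 PPAR target genes tested, 10 fell, none rose and 22 were not called, beside 2.13% of all genes that fell. DESeq2 and limma-voom called none higher either. An unadjusted p below 0.05 was found for 24, beside 18.9% of all genes. Groups did not overlap for 24, all lower in GFP+, beside 17.6% of all genes. The targets' median log2 fold change was -1.004. Their summed level was 15433, 11204 and 11843 CPM in GFP- and 5514, 4954 and 5467 CPM in GFP+ libraries. Both groups were well separated, by 2.41-fold, with a two-sided exact permutation p of 0.1, the smallest possible. The drop was not particular to these targets. Summed cardiomyocyte markers were 2.07-fold lower, with a median log2 fold change of -0.84 and 7 of 12 called lower.

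fabp3, which encodes the fatty acid-binding protein of heart muscle, was at 2878, 1894 and 1789 CPM in GFP- and 252, 366 and 248 CPM in GFP+ libraries. It fell by 2.92 ± 0.26 (SE) on the log2 scale (edgeR adjusted p = 0.00526). acadvl, which encodes the dehydrogenase that begins the oxidation of very long-chain fatty acids, was at 1899, 1335 and 1408 CPM and at 466, 311 and 411 CPM (log2 fold change -1.97 ± 0.22, SE, edgeR adjusted p = 0.00869). Both were called in each fit that left out 1 library. The genes of the mitochondrial trifunctional protein, which carries out later steps of the same pathway, had smaller differences. hadhb was at 1162, 870 and 1035 CPM in GFP- and 461, 387 and 490 CPM in GFP+ libraries (log2 fold change -1.20 ± 0.17, SE, edgeR adjusted p = 0.0171). hadhaa was at 556, 453 and 532 CPM and at 247, 251 and 262 CPM (log2 fold change -1.02 ± 0.15, SE, edgeR adjusted p = 0.0176). Both were called without GFP- replicate 2 or GFP+ replicate 3, with adjusted p of 0.0364 and 0.0325 for hadhb, and neither was called without any of the remaining libraries.

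The 1 PPAR target with a positive fold change was angptl4, which encodes an inhibitor of lipoprotein lipase (log2 fold change 0.12 ± 0.25, SE, edgeR adjusted p = 0.895), which was -0.02 with upper-quartile or no scaling. cd36, a fatty acid uptake receptor gene, did not enter the test: it had 35 counts over the GFP- and 2 over the GFP+ libraries, a ratio of 13.5 with a 95% exact counting interval of 3.47 to 116. This interval pools the libraries of each group and leaves out the spread between them. The count of PPAR targets that fell depended on single libraries, as did that of all genes. It was 2, 4 and 3 without GFP- replicate 1, 2 or 3, and 2, 2 and 15 without GFP+ replicate 1, 2 or 3. All genes that fell, 288 with every library, were 14, 72 and 14, and 66, 40 and 575 in the same fits.

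The list of PGC-1/ERR target genes covers the citric acid cycle, pyruvate dehydrogenase, creatine kinase and oxygen storage. Its 30 genes include dld, which in zebrafish is a Notch ligand gene and no such target. Of the 30, 18 fell by edgeR, beside 2.13% of all genes tested, and 29 had an unadjusted edgeR p below 0.05. None rose by edgeR, DESeq2 or limma-voom. All libraries of GFP+ were below all of GFP- for 29 of the 30, and the median log2 fold change was -0.95. Of all genes tested, 18.9% had an unadjusted edgeR p below 0.05 and 17.6% were lower without overlap. The targets' summed level was 41742, 31995 and 35181 CPM in GFP- and 16156, 13359 and 15891 CPM in GFP+ libraries, 2.40-fold apart. Summed cardiomyocyte markers were 2.07-fold apart. ckmt2a, a mitochondrial creatine kinase gene, was at 725, 526 and 685 CPM in GFP- and 93.2, 75.3 and 81.4 CPM in GFP+ libraries. It was 7.75-fold lower there, with a log2 fold change of -2.95 ± 0.19 (SE) and an edgeR adjusted p of 0.00223. Its copy ckmt2b was at 1816, 1180 and 1364 CPM and at 577, 403 and 464 CPM, a smaller difference (log2 fold change -1.59 ± 0.22, SE, edgeR adjusted p = 0.0157).

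The gene of the oxygen store myoglobin, mb, was at 10062, 8634 and 7164 CPM in GFP- and 1624, 1417 and 1297 CPM in GFP+ libraries, and fell 5.96-fold (log2 fold change -2.58 ± 0.18, SE, edgeR adjusted p = 0.00300). pdha1a, a subunit gene of pyruvate dehydrogenase, was at 866, 773 and 824 CPM and at 365, 304 and 380 CPM (log2 fold change -1.23 ± 0.15, SE, edgeR adjusted p = 0.0106). In each of these 4 genes the groups were far apart. ckmt2a and mb were called in each fit without 1 library. pdha1a and ckmt2b kept their calls without GFP- replicate 2, with edgeR adjusted p of 0.0367 and 0.0338, and without GFP+ replicate 3, with 0.0224 and 0.0387, and lost them without any of the remaining libraries. slc25a4, an ADP/ATP carrier gene, was among the 30 tested genes and passed the filter on low counts through its GFP- libraries alone. It had 121 counts over the GFP- and 1 over the GFP+ libraries. The ratio was 93.4, with a 95% exact counting interval of 16.5 to 3720. This interval pools the libraries of each group and leaves out the spread between them. dld had the only positive fold change of the list (log2 1.98 ± 1.16, SE, edgeR adjusted p = 0.463), and was at -0.13 without GFP+ replicate 3. In zebrafish this symbol names the Notch ligand gene deltaD, so the entry, matched by name, is no PGC-1/ERR target. The count of PGC-1/ERR targets that fell was 2, 10 and 2 without GFP- replicate 1, 2 or 3, and 3, 2 and 14 without GFP+ replicate 1, 2 or 3. All genes that fell were 14, 72 and 14, and 66, 40 and 575 in the same fits.

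Nuclear OXPHOS genes, of which 5 are also among the PGC-1/ERR targets, had the same direction. Of 91 tested, 44 fell and 1 rose, beside 2.13% and 2.08% of all genes tested. The OXPHOS genes had a median log2 fold change of -0.86. An unadjusted edgeR p below 0.05 was found for 85, beside 18.9% of all genes. The OXPHOS genes' summed level was 88945, 63841 and 72308 CPM in GFP- and 40390, 38715 and 42025 CPM in GFP+ libraries, 1.86-fold apart. Summed cardiomyocyte markers were 2.07-fold apart. The gene that rose was cox4i2, an isoform gene of cytochrome c oxidase (log2 fold change 2.06 ± 0.37, SE, edgeR adjusted p = 0.0294). This call was lost with the replicate number as a block (adjusted p = 0.0568), without any GFP- replicate (0.166, 0.104 and 0.172 for replicates 1, 2 and 3) and without GFP+ replicate 2 (0.0688). The count of OXPHOS genes that fell was 2, 15 and 1 without GFP- replicate 1, 2 or 3, and 2, 2 and 32 without GFP+ replicate 1, 2 or 3. All genes that fell were 14, 72 and 14, and 66, 40 and 575 in the same fits.

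**Figure D3:**
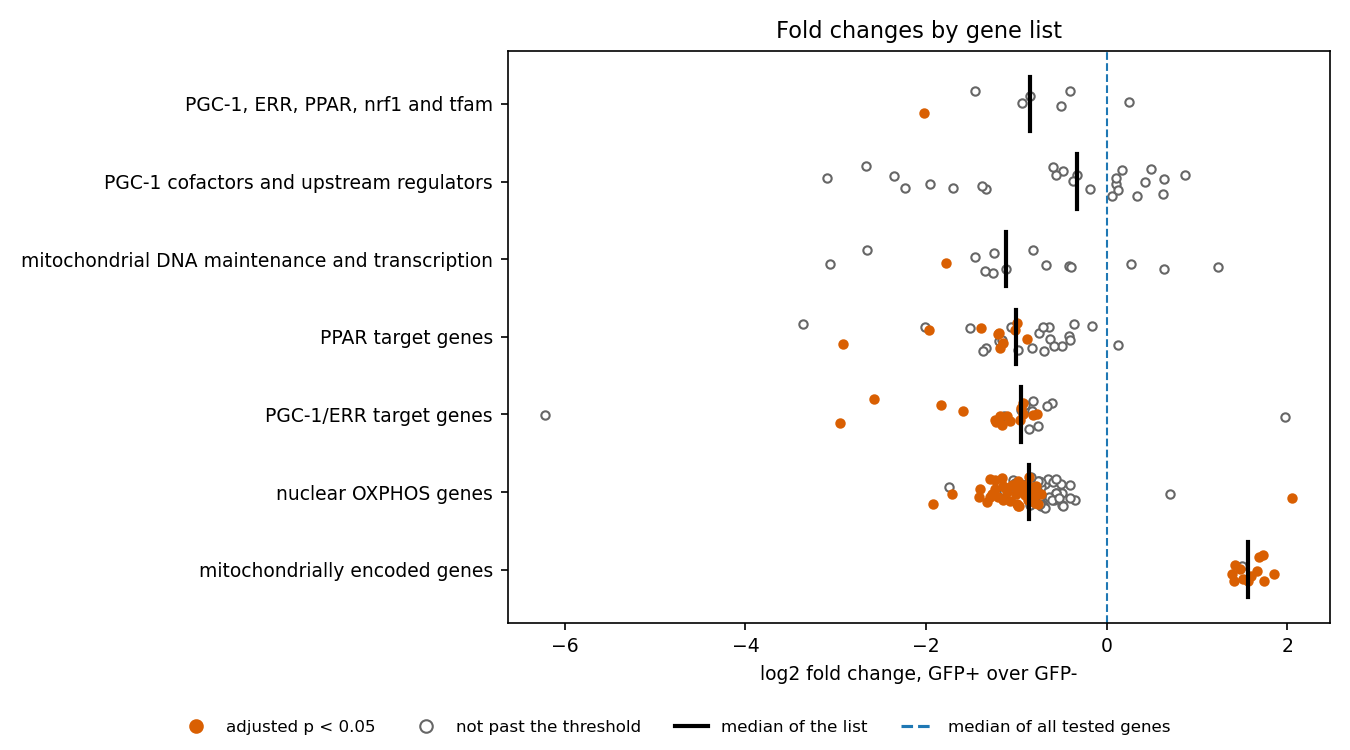
Log2 fold change of GFP+ over GFP- libraries on the x axis for each tested gene of 7 lists on the y axis, with filled points for an adjusted p below 0.05, a black bar at each list's median and a dashed line at the median of all tested genes, 0.01. Target and OXPHOS genes lie around medians of -1.004 to -0.86, the cofactors around -0.32 and the mitochondrially encoded genes around 1.57.

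Since summed cardiomyocyte markers were lower in GFP+ libraries, the counts of 6 regulators were also set against other transcripts of the same library. In such a ratio library scaling cancels. The references were the summed nuclear OXPHOS genes, the summed PGC-1/ERR targets, the summed cardiomyocyte markers, myl7 and tnnt2a, the last of which encode a cardiac myosin light chain and cardiac troponin T. This gave 30 ratios, each compared by a two-sided exact permutation test whose smallest possible p is 0.1. The smallest adjusted permutation p found over the 30 was 0.5. The values are therefore a description.

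ppargc1a was lower in GFP+ libraries against 4 of the 5 references. These are not separate checks, since myl7 and tnnt2a are also among the cardiomyocyte markers. The OXPHOS and PGC-1/ERR lists share 5 genes. Per 1e5 counts of myl7 it had 99.9, 166 and 199 counts in GFP- and 62.1, 96.4 and 65.1 counts in GFP+ libraries. The groups were separated by a narrow gap between GFP- replicate 1 and GFP+ replicate 2, and the means of 155 ± 50.5 and 74.5 ± 19.0 (SD, n = 3 each) were 2.08-fold apart. Per 1e5 nuclear OXPHOS counts it had 38.9, 64.3 and 74.0 counts in GFP- and 24.1, 31.4 and 23.8 counts in GFP+ libraries, 2.23-fold lower. It was 2.02-fold lower per tnnt2a count and 1.93-fold lower per cardiomyocyte marker count. Against the PGC-1/ERR targets it overlapped, with 82.8, 128 and 152 counts per 1e5 in GFP- and 60.4, 91.0 and 62.9 in GFP+ libraries (exact permutation p = 0.2).

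None of the other 5 regulators was lower in every GFP+ library than in any GFP- library against any of these references. esrra had 112, 132 and 101 counts per 1e5 counts of myl7 in GFP- and 160, 76.0 and 109 in GFP+ libraries, so GFP+ libraries held both extremes and the means of 115 ± 15.7 and 115 ± 42.2 (SD, n = 3 each) coincided. Against nuclear OXPHOS counts it had 43.4, 51.0 and 37.7 per 1e5 in GFP- and 62.1, 24.7 and 39.7 in GFP+ libraries. ppargc1b had 117, 250 and 191 counts per 1e5 counts of myl7 in GFP- and 188, 141 and 56.2 in GFP+ libraries, which overlapped. GFP+ replicate 3 was the lowest. esrrga and nrf1 overlapped against all 5 references. tfam had 141, 187 and 238 counts per 1e5 counts of myl7 in GFP- and 209, 358 and 223 in GFP+ libraries. It was higher in every GFP+ library only against the PGC-1/ERR targets, with 117, 144 and 182 per 1e5 in GFP- and 204, 338 and 216 in GFP+ libraries, and against tnnt2a.

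**Figure D4:**
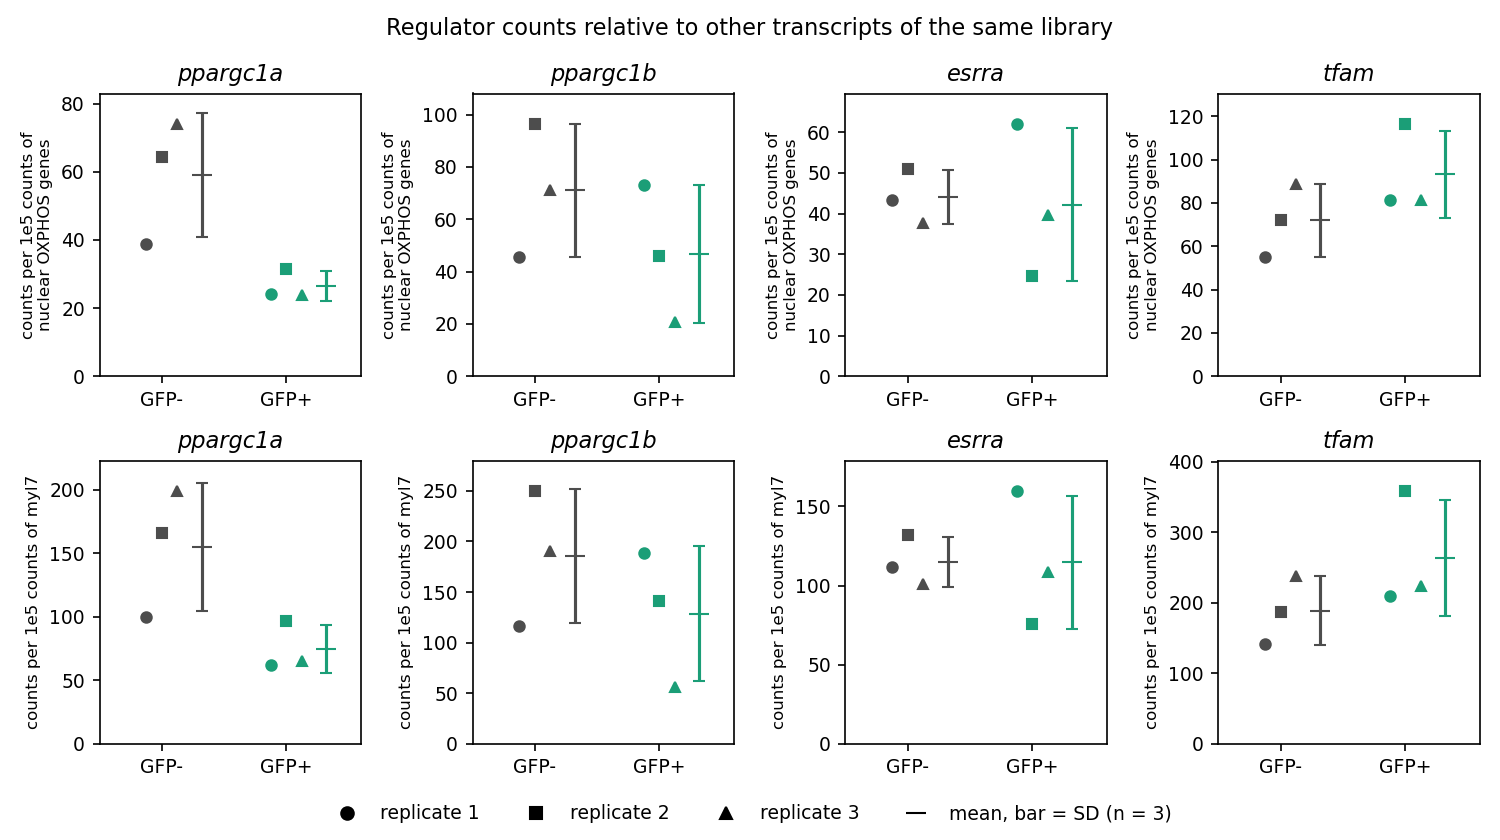
Counts of ppargc1a, ppargc1b, esrra and tfam per 1e5 counts of nuclear OXPHOS genes (upper panels, y axis) and of myl7 (lower panels, y axis), 1 point per library, with the mean and SD of 3 libraries. ppargc1a separates the groups in both panels, at 38.9 to 74.0 against 23.8 to 31.4 per 1e5 nuclear OXPHOS counts, while the panels of ppargc1b, esrra and tfam overlap.

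Among the regulators themselves, 15 pairwise ratios of counts were compared, and 5 did not overlap between the groups. Ratios that share a regulator are not separate results, and the share over other gene pairs was not computed. Of single genes tested, 17.6% were lower and 12.1% higher in GFP+ libraries without overlap. Of the 5 ratios, the one with the least spread was ppargc1a over tfam, at 0.71, 0.89 and 0.83 in GFP- and 0.30, 0.27 and 0.29 in GFP+ libraries. The means of 0.81 ± 0.094 and 0.29 ± 0.015 (SD, n = 3 each) were 2.84-fold apart (two-sided exact permutation p = 0.1, and 0.3 adjusted over 15). ppargc1a over nrf1 was 2.23, 2.62 and 3.41 in GFP- and 1.31, 1.34 and 0.53 in GFP+ libraries. The remaining 3 had esrrga as denominator, with ppargc1a, ppargc1b or esrra above it. ppargc1a over esrra and over ppargc1b overlapped.

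The genes whose pattern over the 6 libraries was closest to ppargc1a were found among the 5842 genes whose mean reached 10 CPM. Likeness was the root mean square difference of log2 CPM after each gene's mean was subtracted, so the group difference itself enters the measure, and all genes share the same libraries. The closest were kazald3, fgf17 and tmem177, at differences of 0.20, 0.28 and 0.28, beside a median of 1.09 over all genes. kazald3 fell by 2.08 ± 0.23 (SE) on the log2 scale (edgeR adjusted p = 0.00833), fgf17, a fibroblast growth factor gene, by 2.00 ± 0.30 (adjusted p = 0.0184), and tmem177 by 1.59 ± 0.30 (adjusted p = 0.0321). With edgeR, kazald3 lost its call without GFP- replicate 1 or 3 (adjusted p = 0.0614 and 0.0559), fgf17 without any GFP- replicate or GFP+ replicate 2 (0.0622 to 0.117), and tmem177 without any library but GFP+ replicate 3 (0.0566 to 0.185). By the same measure ppargc1b ranked 302, tfam 868, esrra 926, nrf1 1429 and esrrga 4014 among the 5842.

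For esrra the closest genes were ppp2r3c, a phosphatase 2A subunit gene, ampd3b, an AMP deaminase gene, and ppp3r1b, a calcineurin subunit gene, at differences of 0.14, 0.17 and 0.17, beside a median of 0.79. None of them was called by edgeR with TMM scaling and group as the only term, with adjusted p of 0.266, 0.189 and 0.0761. ppp3r1b was called by edgeR without scaling beyond library size (adjusted p = 0.0446) and by DESeq2 (0.0212), and ampd3b by edgeR with the replicate number as a block (0.0478). Their means in GFP- and GFP+ libraries were 40.5 and 23.1 CPM for ppp2r3c, 251 and 119 CPM for ampd3b, and 46.0 and 21.7 CPM for ppp3r1b.

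Reads shared with neighbouring genes could touch 4 of the 8 regulators. By RefSeq's annotation of the assembly GRCz12tu, which is not known to be the build of the deposited counts, the span of esrra overlaps 1 long non-coding RNA gene, that of pparaa overlaps wnt7ba and 2 let-7 microRNA genes, that of pparab overlaps yars2 and 1 long non-coding RNA gene, and that of tfam overlaps zgc:171971. The spans of ppargc1a, ppargc1b, esrrga and nrf1 overlap no other gene there. How the counting treated shared or antisense reads is not given in the sources used here.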

How the data were processed

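RNA was taken from sorted cells of dissected atrioventricular canals and amplified with SMART-Seq v4, which adds no molecular identifiers, per the labels' protocols. Counting intervals and floors therefore cover counting error only. The authors deposited whole-number total counts per gene for each library, not normalized, per the file headers. No aligner, counting program, genome build or strand setting was given in the sources used here. Gene lengths were not given, so counts of different genes were set against each other only as ratios or percentages within a library. These were compared between the groups and do not measure which gene had more transcripts.

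Groups and replicate numbers came from the sample titles. All 6 libraries were fitted with edgeR 4.0.16 in R 4.3.3 (filterByExpr, TMM, robust quasi-likelihood F test, group as the only term), with Benjamini-Hochberg adjustment over 13490 genes and a threshold of 0.05. Standard errors were taken as the fold change over the square root of F. Alternatives used limma 3.58.1 (limma-voom), DESeq2 1.42.0, other scalings and filters, a replicate block and each library left out. The fit was tested on counts simulated with 1 spread for both groups, unlike these data, where GFP+ libraries varied more. It called 6.0% of 2-fold, 40.0% of 4-fold, 58.0% of 8-fold and 70.0% of 16-fold changes with the right sign. A smaller difference that was not called is therefore not shown to be absent.

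The 8 regulators, all gene lists and the rule for naming genes were chosen with earlier results of these data known. The rule named every regulator, tested paralog and RXR gene and the 3 genes most like ppargc1a and esrra. Of each other list it named up to 4 called genes in order of adjusted p, or the top 2 if it had none. angptl4, cd36, slc25a4, dld, cox4i2, myh6 and top1mt were named after their values were seen. The untested paralogs and RXR genes were named outside this rule. Some list entries (perm1a, perm1b, top1mt, mterf4 and actc1a) were matched by identifier through a gene name table. Same-numbered GFP- and GFP+ libraries had correlations of their deviations of 0.131, 0.187 and 0.0922. Differently numbered ones had -0.120 to -0.0123. The labels state no pairing, so the main fit did not take the numbers as pairs, and the replicate block was run as an alternative.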

Additional observations from a re-analysis of the deposited data

How the results depend on the processing

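The call of ppargc1a held under each other scaling, filter and test run, with adjusted p of 7.38e-08 (DESeq2) to 0.0218 (replicate block), with log2 fold changes of -2.12 to -1.85 as each library was left out and its call lost in 4 of those 6 fits. The number of regulators called lower was 2 with DESeq2, which added ppargc1b (-1.40), and 0 to 1 with 1 library left out. esrrga turned to -0.26 without GFP+ replicate 3, within a leave-one-out range of -0.26 to 0.70. perm1a turned to 0.08 without GFP- replicate 1 and to 0.43 and 0.44 without GFP+ replicate 1 or 2 (range -7.72 to 0.44). ppardb turned to -1.71 with limma-voom, -0.92 with the replicate block and -1.001 without GFP+ replicate 2 (leave-one-out range -1.001 to 0.84). rxrba turned to -0.22 with limma-voom and to -0.015 without GFP+ replicate 3 (range -0.015 to 1.47). angptl4 turned to -0.019 with upper-quartile scaling, -0.016 with library size only, -0.058 without GFP- replicate 2 and -0.11 without GFP+ replicate 3 (range -0.11 to 0.32), and dld to -0.13 without GFP+ replicate 3 (range -0.13 to 2.57). None of these was called.

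Counts of genes called lower moved more. All genes called lower, 288 by edgeR, were 450 with upper-quartile scaling, 507 with library size only, 549 with limma-voom and 729 with DESeq2, and 14 to 575 with 1 library left out. All genes called higher, 280, were 938 with DESeq2 and 30 to 443 with 1 library left out. PPAR targets called lower, 10, were 17 with library size only or no filter on low counts, 16 with limma-voom or the replicate block, 20 with DESeq2, and 2 to 15 with 1 library left out. PGC-1/ERR targets called lower, 18, were 11 with DESeq2 size factors or with scaling on nuclear genes only, and 2 to 14 with 1 library left out. OXPHOS genes called lower, 44, were 76 with library size only, 29 with nuclear genes only and 73 with DESeq2, and 1 to 32 with 1 library left out. Mitochondrial DNA factors called lower, 1, were 2 with upper-quartile scaling, library size only or no filter, 3 with DESeq2, and 0 to 2 with 1 library left out. Cofactors called lower were 0 to 1 with 1 library left out.

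Over all genes the median log2 fold change, 0.01, was -0.11 with upper-quartile scaling, -0.16 with library size only, -0.36 with limma-voom and -0.29 with the replicate block. The cofactor median, -0.32, was -0.49 with library size only, -0.050 with a stricter filter, -0.56 with limma-voom and -0.54 with the block, and -0.43 to -0.091 with 1 library left out. The median of the mitochondrial DNA factors was -0.95 with the stricter filter and -1.26 to -0.85 with 1 library left out. With the replicate block, ppargc1a kept its call (edgeR adjusted p = 0.0218), 290 genes were lower and 282 higher, and each library correlated best with its own number, a hint from the data and not from the design. The block ended the calls of tmem177 (adjusted p = 0.0527) and cox4i2 (0.0568) and made one of ampd3b (0.0478). The causes of these shifts were not tested. Low counts limit pparaa, pparab and the untested paralogs.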
